A study of Oryza sativa with 6 samples.

Results

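Sites called in one library only are places in the rice genome where BG4-DNA-IP-seq gave a peak in a single library and no overlapping peak in any other. The members were chosen by the measured peak calls themselves. The peaks of the 4 libraries were pooled, peaks that shared at least 1 bp were merged, and merged intervals with peaks from exactly 1 library were kept. The rule kept 42477 of 115855 merged intervals (36.7%), and every one of them held a single peak. K+PEG rep1 alone called 8986 of these sites, K+PEG rep2 alone 11065, K+PDS rep1 alone 7752 and K+PDS rep2 alone 14674.

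The libraries were made from fragmented genomic DNA of wild-type Nipponbare rice seedlings, 2 weeks old. In both conditions the DNA was denatured, allowed to refold in buffer with 150 mM KCl, incubated with FLAG-tagged BG4 and recovered with an anti-FLAG antibody. K+PEG denotes 2 libraries prepared with KCl and 40% PEG200 (rep1 and rep2), and K+PDS denotes 2 libraries for which the methods name KCl and PDS (rep1 and rep2). The protocol in the sample labels is worded alike for all libraries and names PEG200 but no PDS, so the condition was taken from the sample titles and treatment labels. Refolded DNA carries no chromatin, so a peak reports what purified DNA can fold into and not what was folded in the plant. The methods call the replicates biological, whereas the labels do not say which plants went into each library. Every p-value of a permutation test below measures only the spread between these libraries. The −log10 p and the q-value of a peak set its reads against the local background within a single library. The 2 input libraries were not analysed here.

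A DNA G-quadruplex (G4) forms when runs of guanines in a strand pair with each other in flat rings that stack on top of one another. Potassium ions sit between the rings and hold the stack together. PEG, polyethylene glycol, crowds the solution and takes up water, whereas PDS, pyridostatin, is a small molecule that binds the stacked rings and stabilizes them. BG4 is a single-chain antibody that recognizes folded G4s of many sequences. Runs of guanines are common in rice promoters and the early part of genes. Sequences and gene annotations of the genome build of the lists (MSU v7.0) were not used here, so the sites are given by position only.

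The 4 libraries differed in depth and in the number of peaks, and the part of either in whether a peak stays alone was not tested. The depths worked out from the peak lists were 7904188 reads for K+PEG rep1, 13334921 for K+PEG rep2, 5985000 for K+PDS rep1 and 7554108 for K+PDS rep2. The lists held 73199, 81992, 64874 and 68973 peaks in the same order. One-library sites took 12.3%, 13.5%, 11.9% and 21.3% of these peaks. K+PDS rep2 thus stood apart from the other libraries, and its depth lay between that of K+PDS rep1 and that of K+PEG rep1. Its sites made up 34.5% of all one-library sites, against 21.2%, 26.0% and 18.2% for K+PEG rep1, K+PEG rep2 and K+PDS rep1. Together the sites covered 2.70 Mb in K+PEG rep1, 3.20 Mb in K+PEG rep2, 2.30 Mb in K+PDS rep1 and 4.90 Mb in K+PDS rep2. These lengths were 7.80%, 7.67%, 6.79% and 14.8% of the bases in each list, a lower share than that of the peaks because the sites were short.

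**Figure D1:**
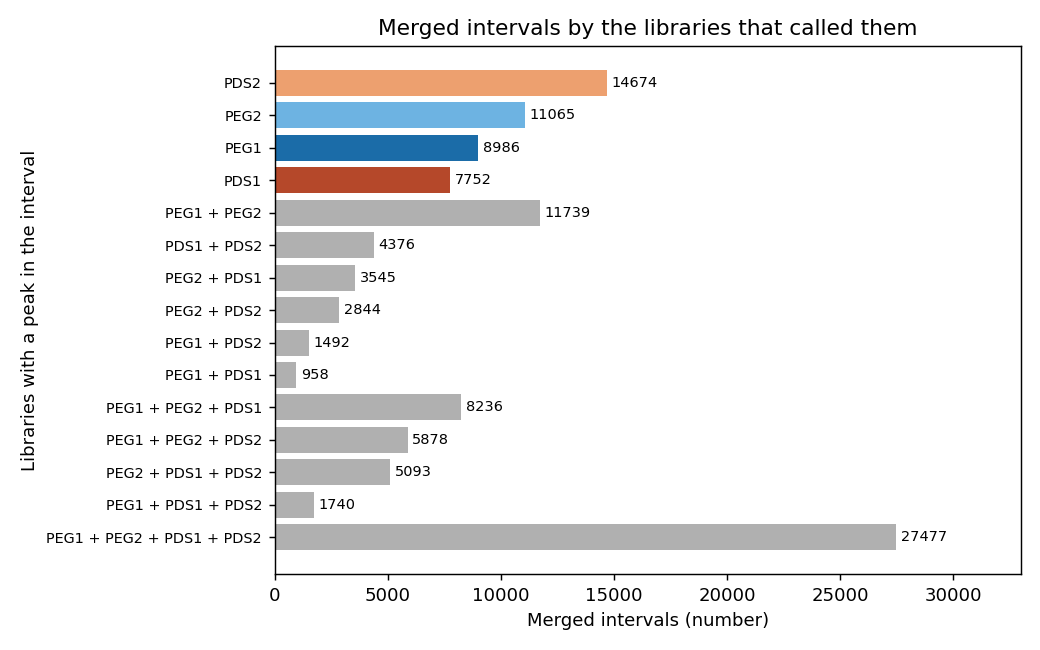
Bars give the number of merged intervals for each combination of libraries, with one-library sites in colour and shared intervals in grey (PEG1 is K+PEG rep1, PDS2 is K+PDS rep2, and so on). K+PDS rep2 alone reached 14674 intervals, more than any pair of libraries, and the 27477 intervals of all 4 libraries were the longest bar.

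As deposited, the counts of the conditions overlapped. K+PEG libraries had 10025.5 ± 1470 one-library sites (SD, n = 2) and K+PDS libraries 11213 ± 4895 (SD, n = 2), and both K+PEG counts lay between the K+PDS counts. The difference of -1187.5 sites had p = 1 in a two-sided exact permutation test, which cannot go below 0.33 with these numbers of libraries. The counts and shares are set by the rule, and those of each library depend on the lists of the others. They are thus not independent, and the p-values given for them are a description only. As a share of the peaks the means were 12.9% ± 0.862 in K+PEG and 16.6% ± 6.59 in K+PDS (SD, n = 2), a difference of -3.73 percentage points with an exact permutation p = 1. The difference in sites turned to 2628 when a −log10 p of at least 5 was asked and to 813.5 with merging within 1000 bp, so that its direction was not settled. It was 10698 without K+PEG rep1 and 6617.5 without K+PEG rep2. Leaving out a K+PEG library turns intervals called by the K+PEG pair alone into one-library sites, so the signs of these values do not bear on the direction. With equal numbers of peaks both K+PDS libraries lay above both K+PEG libraries, with a difference of -4362 sites and of -6.72 percentage points (exact permutation p = 0.33 for each). The share also separated with a reciprocal overlap of at least 50% (-8.32 percentage points) and with summit reads scaled to the shallowest depth (-4.46), again with an exact permutation p = 0.33.

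How many peaks stayed alone depended on which other libraries they were set against. Without K+PEG rep2, the sites of K+PEG rep1 alone went from 8986 to 21820, and without K+PEG rep1 those of K+PEG rep2 went from 11065 to 23367. The pair of K+PEG libraries shared 11739 intervals that no K+PDS library called. Without K+PDS rep2, the sites of K+PDS rep1 went from 7752 to 13060, and without K+PEG rep2 to 12240. The K+PDS pair shared 4376 intervals by itself, and K+PDS rep1 shared almost as many, 3545, with K+PEG rep2 alone. The definition of overlap moved the total as well. When only a reciprocal overlap of at least 50% counted as shared there were 89969 one-library sites, and when peaks up to 1000 bp apart were merged there were 16445.

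One-library sites were weak and short beside the other intervals. Since a strong peak is more readily called again, strength and the rule are not independent, and the values that follow are a description with no test. Fold enrichment is the number of reads at the summit of a peak over the local background, each plus 1. The median of the highest fold enrichment in an interval was 3.01 for intervals of 1 library, 3.68 for 2, 4.54 for 3 and 6.36 for 4 libraries. The median length of the merged interval grew likewise, from 268 bp through 408 and 584 to 896 bp.

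Within each library the one-library peaks had lower fold enrichments than the shared peaks. The median fold enrichment was 3.06 against 3.93 in K+PEG rep1, 2.85 against 3.80 in K+PEG rep2 and 3.13 against 3.88 in K+PDS rep1. It was 3.02 against 3.35 in K+PDS rep2, the smallest gap of the 4 libraries, since its shared peaks had the lowest median and its one-library peaks did not. The median number of reads at the summit of one-library peaks was 17, 26, 13 and 16, in the order K+PEG rep1, K+PEG rep2, K+PDS rep1, K+PDS rep2, and that of shared peaks 22, 34, 17 and 18. The fewest reads that made a one-library peak were 10, 14, 8 and 9. The order of these limits was that of the depths.

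The authors called peaks at p = 0.01, a −log10 p of 2, and the medians of one-library sites lay between 4.64 and 6.37. The median −log10 p was 5.36, 6.37, 4.64 and 5.24 in the same order of libraries, against 8.66, 11.5, 7.34 and 6.15 for shared peaks. At least 5 on this scale was the value of 5250 sites of K+PEG rep1 (58.4%, against 80.0% of its whole list), 7792 of K+PEG rep2 (70.4% against 84.9%), 3364 of K+PDS rep1 (43.4% against 71.6%) and 7875 of K+PDS rep2 (53.7% against 64.0%). Adjusted within each library, 98.4% to 99.3% of the sites had a q-value of at most 0.05. Between 43.4% and 70.4% of the sites of a library thus had a −log10 p of at least 5. In reads the margin was small, as in K+PDS rep1, where the median site had 13 reads and the weakest 8.

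The share of peaks that stayed alone fell steeply with fold enrichment. Below a fold enrichment of 2 it was 33.0% in K+PEG rep1, 27.4% in K+PEG rep2, 37.6% in K+PDS rep1 and 30.3% in K+PDS rep2. Between 4 and 5 it was 6.47%, 6.51%, 5.91% and 12%, and between 6 and 8 it was 0.753%, 0.326%, 0.335% and 0.669%. From a fold enrichment of 8 upwards, 3 of 3654, 2 of 5471, 2 of 2916 and 3 of 745 peaks were alone. K+PDS rep2 lay above the other libraries between fold enrichments of 2.5 and 5. Of its peaks between 2.5 and 3, 26.6% were alone, against 23.8%, 23.4% and 23.3% in K+PEG rep1, K+PEG rep2 and K+PDS rep1. Of those between 3 and 3.5, 25.6% were alone, against 17.3%, 18.2% and 17.4% in K+PEG rep1, K+PEG rep2 and K+PDS rep1, and 20.2% between 3.5 and 4, against 12.6%, 12.4% and 12%. Between 2 and 2.5 it was nearer to them, with 28.8% against 27.3%, 26.0% and 28.3%.

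**Figure D2:**
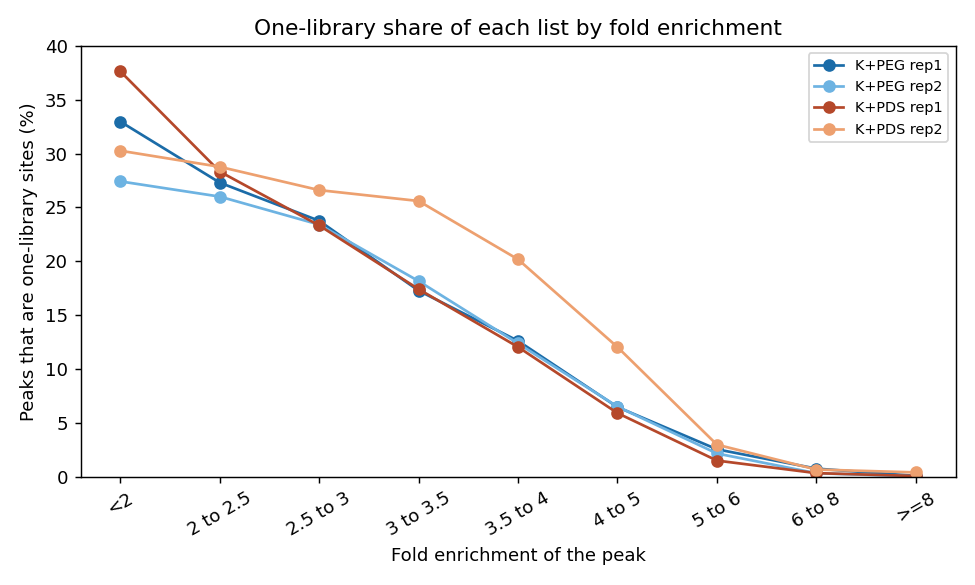
Points give, for each library, the percentage of its peaks that were one-library sites (y axis) in bins of fold enrichment (x axis). K+PEG rep1, K+PEG rep2 and K+PDS rep1 lay close together from a fold enrichment of 2 to 5, whereas K+PDS rep2 lay above them from 2.5 to 5, with 25.6% between 3 and 3.5.

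Most one-library sites covered little more than a single extended read. The median length was 264 bp in K+PEG rep1, 261 bp in K+PEG rep2, 258 bp in K+PDS rep1 and 282 bp in K+PDS rep2, against 409, 440, 401 and 388 bp for shared peaks. Exactly 200 bp, the shortest length in the lists, was the length of 853 (9.49%), 763 (6.90%), 1071 (13.8%) and 1278 (8.71%) sites, and of 3.06%, 1.70%, 4.26% and 4.25% of the shared peaks. Long sites came mainly from K+PDS rep2, with 110 of at least 1000 bp, and from K+PEG rep1, with 38, whereas K+PEG rep2 and K+PDS rep1 had 5 each. The whole lists held 5230, 4079, 6527 and 6546 peaks of that length in this order, so nearly all long peaks were shared in every library. The longest were chr5:12006631-12008696 in K+PDS rep2 (2066 bp, fold enrichment 3.67), chr10:14832706-14834686 in K+PEG rep1 (1981 bp, 4.25), chr8:12735980-12737333 in K+PDS rep1 (1354 bp, 3.86) and chr8:22393359-22394484 in K+PEG rep2 (1126 bp, 4.53). The nearest peak of another library was 4855 bp away from the K+PDS rep2 site but only 166 to 440 bp away from the other 3.

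The reads of one-library sites were also set against the depths of the other libraries. These are the reads of the library whose call chose the site, so the shares are a description from which nothing is read about the other libraries. The reads at each summit were scaled to the depth of each other library and compared with the reads that library needed for a −log10 p of 2, taking its background in proportion. Scaled in this way, 8764 sites of K+PEG rep1 (97.5%, against 99.0% of its whole list) had enough reads for a call in all 3 other libraries. So did 9799 sites of K+PEG rep2 (88.6% against 94.4%), 7752 of K+PDS rep1 (100% against 100%) and 14307 of K+PDS rep2 (97.5% against 98.1%). For K+PDS rep1, the shallowest library, this outcome was fixed, since its reads were scaled up each time. A margin of at least 2 times the reads needed was rarer. It was met by 895 sites of K+PEG rep1 (9.96% against 40.0% of the list), 534 of K+PEG rep2 (4.83% against 34.3%), 1081 of K+PDS rep1 (13.9% against 48.7%) and 853 of K+PDS rep2 (5.81% against 19.7%). The lists hold nothing below the threshold and no stretch shorter than 200 bp, so BG4 signal below the limit of another library could not be seen. When only listed peaks with enough summit reads at the shallowest depth were kept, K+PDS rep2 had 14708 sites, K+PEG rep1 9337, K+PEG rep2 9970 and K+PDS rep1 8399. No peaks were called anew at that depth, and the part of depth in these counts was not tested.

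The strongest one-library site of each library had a fold enrichment of 8.61 to 10.5. These sites were picked by fold enrichment, so scaled reads above those needed elsewhere follow from that choice and are a description only. In K+PEG rep1 the highest was chr5:20053081-20053785, with 67 reads over a background of 5.49 and a fold enrichment of 10.5. Scaled, this would be 113 reads in K+PEG rep2, 50.7 in K+PDS rep1 and 64.0 in K+PDS rep2, where 17, 10 and 11 were needed. The next peak along the chromosome, chr5:20053933-20054392, was also of K+PEG rep1 alone (fold enrichment 4.19), and the nearest peak of another library lay 1944 bp away. The same library held chr1:26821528-26821854 (fold enrichment 8.98), chr8:8497458-8497837 (8.92), chr6:11818037-11818359 (7.75) and chr10:19202888-19203258 (7.49). The last of these lay 2537 bp before an interval that all 4 libraries called, with fold enrichments of 9.22 and 10.4 for K+PEG rep1 and rep2, and 14.6 and 6.82 for K+PDS rep1 and rep2.

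The leading site of K+PEG rep2 was chr7:8259081-8260056, with 68 reads, a background of 7.02 and a fold enrichment of 8.61. It was 976 bp long and lay 3093 bp from the nearest peak of another library. It was followed by chr2:10354898-10355267 (fold enrichment 8.50), chr2:8733193-8733521 (7.23), chr12:8326784-8327447 (7.0) and chr2:30570961-30571302 (6.87), of which the nearest other peak was in K+PEG rep1 each time. The site chr2:8733193-8733521 stood 966 bp before a strong shared interval, where fold enrichments were 16.0 and 14.8 for K+PEG rep1 and rep2, and 17 and 14.0 for K+PDS rep1 and rep2. A strong one-library site could thus sit next to a place that all libraries marked.

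In K+PDS rep1 the highest fold enrichment was 10.1 at chr8:9267385-9267640, with 75 reads over a background of 6.50. The nearest peak of K+PDS rep2, with a fold enrichment of 5.65, lay 503 bp further along and overlapped a weaker peak of K+PDS rep1 (2.88). The second site, chr2:23474995-23475571 (fold enrichment 8.67), missed a K+PDS rep2 peak by 24 bp. The site chr10:6476538-6476849 (7.47) lay 267 bp from a peak of K+PDS rep2. The remaining sites were chr2:14252170-14252448 (7.40, 93 reads) and chr5:11911785-11912165 (7.23), and the last had no peak of any other library within 3 kb.

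In K+PDS rep2 the top site was chr6:4734665-4735101, with 54 reads, a background of 4.56 and a fold enrichment of 9.89, and it lay 2839 bp from the nearest other peak. It was followed by chr9:20498338-20498651 (8.79), chr4:9154573-9154905 (8.44), chr6:28659133-28659494 (7.52) and chr6:20539891-20540182 (7.11). The chromosome 9 site stood between an interval of all 4 libraries and an interval of the K+PEG pair (fold enrichments 3.95 and 8.50). Among the 5 sites of each library named here, the distance to the nearest other peak ran from 24 to 3323 bp, and none overlapped another peak by construction.

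A fold enrichment of at least 5 was reached by 250 one-library sites of K+PEG rep1, 187 of K+PEG rep2, 122 of K+PDS rep1 and 117 of K+PDS rep2. These were 1.37%, 0.887%, 0.785% and 1.85% of the 18209, 21078, 15548 and 6309 peaks of that strength in the lists. K+PDS rep2 had few strong peaks of any kind, and all but 117 of its 14674 one-library sites had fold enrichments under 5.

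Sites where the local background itself was high were mostly of K+PDS rep1. The background relative to the floor of its library (the mean coverage of the genome, used where the local one is lower) had a median of 1.16, 1.15, 1.08 and 1.13 at one-library sites, close to 1.13, 1.12, 1.09 and 1.10 over the lists. A limit of 4 times the floor was chosen after the values were seen. It was met by 39 one-library sites of K+PDS rep1, against 2, 4 and 4 in K+PEG rep1, K+PEG rep2 and K+PDS rep2. The whole lists held similar numbers of such peaks, 258, 309, 330 and 287, so 11.8% of them were alone in K+PDS rep1 and 0.775%, 1.29% and 1.39% in the other libraries.

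These 39 sites gathered in a few places. Of these, 17 were on chromosome 12, 11 on chromosome 1, 4 on chromosome 9 and the rest on chromosomes 4, 6, 8, 10 and 11. The 11 on chromosome 1 fell in 44.9 kb, chr1:33505427-33550340. The ends of each stretch given here are those of its first and last K+PDS rep1 site of this kind, so many K+PDS rep1 sites in it follow from that choice. The chromosome 1 stretch had 20 merged intervals, of which K+PDS rep1 alone called 11, K+PDS rep2 alone 3 and no K+PEG library alone any. A K+PEG rep2 one-library site, chr1:33550496-33550740 (78 reads over a background of 34.8), lay 155 bp past its end. The 11 K+PDS rep1 sites had 31 to 240 reads over a background of 16.4 to 62.0. On chromosome 12, 16 sites with 35 to 57 reads lay in chr12:20500922-20660526, where 27 of 46 intervals were one-library sites, 18 of them of K+PDS rep1. On chromosome 9, 4 sites lay in chr9:4694767-4729844, with 33 to 46 reads.

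The largest numbers of reads at any one-library site were found among them. The site chr10:20467482-20467867 had 247 reads over a background of 68.0 (fold enrichment 3.59), chr4:9156211-9156598 had 242 over 56.7 (4.21) and chr1:33505427-33505770 had 240 over 62.0 (3.83). Scaled by depth alone, the chromosome 4 site would have 320 reads in K+PEG rep1, 539 in K+PEG rep2 and 305 in K+PDS rep2, where 96, 153 and 92 were needed. The most reads at any summit were 395, 399, 400 and 400 in the lists of K+PEG rep1, K+PEG rep2, K+PDS rep1 and K+PDS rep2. All lists thus stopped near the same number despite their different depths, so this scaling cannot be taken to hold at so many reads. The part of this limit in the sites of high background was not tested. Nothing is read from these scaled values. No K+PEG peak lay within 3 kb of the chromosome 4 site, and the nearest K+PDS rep2 peak was the strong one-library site chr4:9154573-9154905, 1305 bp away. In contrast, chr10:20467482-20467867 lay beside chr10:20466377-20466736, where K+PDS rep1 had 269 reads and K+PDS rep2 and K+PEG rep2 had 181 and 283. The sites chr6:28181152-28181405 (139 reads) and chr8:22324097-22324322 (81 reads) likewise lay between intervals of 3 and of 4 libraries. The peak names of both K+PDS lists, but of neither K+PEG list, carry the word uniq. One-library sites of high background numbered 39 in K+PDS rep1 and 4 in K+PDS rep2. Whether the word marks a different filter on reads, and its part in these sites, was not tested.

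**Figure D3:**
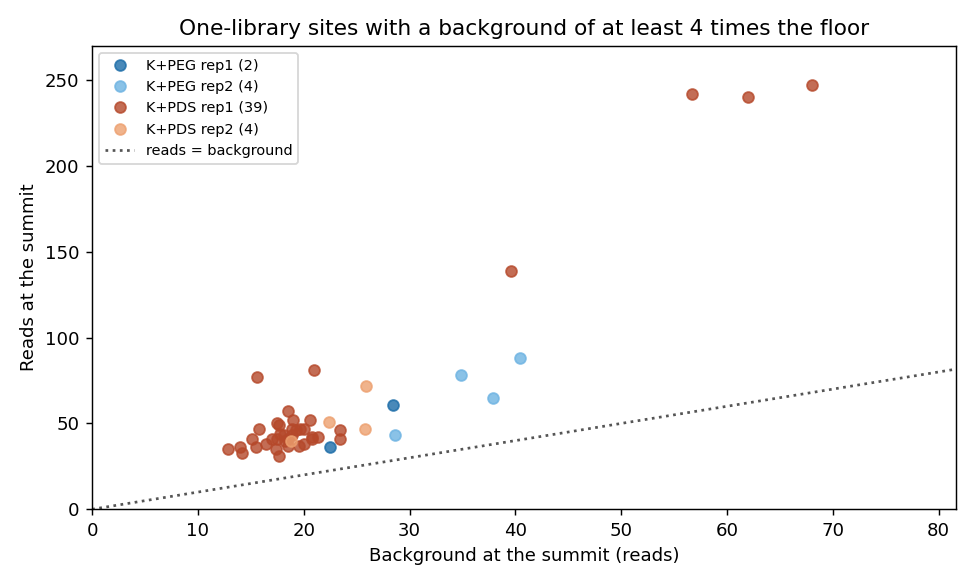
Each point is a one-library site with a background of at least 4 times the floor, by its background (x axis, reads) and the reads at its summit (y axis), and the dotted line marks reads equal to background. Of the points, 39 belong to K+PDS rep1, and 3 of them, with 240 to 247 reads, stand far above the rest.

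One-library sites lay near the peaks of other libraries rather than far from them. The median gap to the nearest peak of another library was 1074 bp for K+PEG rep1, 891 bp for K+PEG rep2, 536.5 bp for K+PDS rep1 and 841.5 bp for K+PDS rep2. Within 1000 bp of a peak of another library lay 47.7%, 53.8%, 68.6% and 55.1% of the sites, and within 200 bp 11.0%, 12.6%, 20.8% and 16.7%. Gaps over 10 kb were rare, with 34, 57, 13 and 71 sites, and the widest was 31911 bp in K+PDS rep2. Merged intervals were dense everywhere. The median gap to the next interval of any kind was 621 bp from an interval of 1 library and 626.5, 593 and 533 bp from those of 2, 3 and 4 libraries.

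The library that called the nearest peak was most often the replicate of the same condition for K+PEG and for K+PDS rep1. It was K+PEG rep2 for 57.8% of the K+PEG rep1 sites, K+PEG rep1 for 46.4% of the K+PEG rep2 sites and K+PDS rep2 for 47.0% of the K+PDS rep1 sites. For K+PDS rep2 sites it was K+PEG rep2 in 42.0%, K+PDS rep1 in 31.1% and K+PEG rep1 in 26.9%. K+PEG rep2 also has the longest list.

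**Figure D4:**
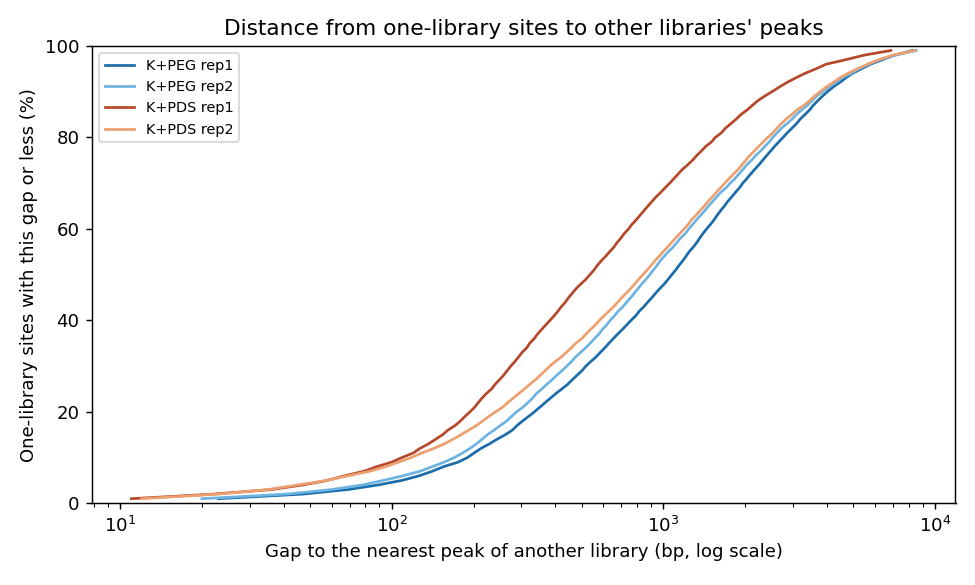
Lines give, for each library, the cumulative percentage of its one-library sites (y axis) with a gap to the nearest peak of another library no larger than the value on the x axis (bp, log scale). At 1000 bp the K+PDS rep1 line is highest, with 68.6% of the sites, and the K+PEG rep1 line lowest, with 47.7%.

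Sites just inside and just outside the rule looked alike. Another library's peak lay at most 10 bp away from 291 one-library sites, and 28 of these touched it with a gap of 0 bp. The 291 sites had fold enrichments of 1.75 to 6.49, with a median of 2.95, and a median length of 271 bp. On the other side, 88 intervals of 2 libraries were joined by an overlap of at most 10 bp, and their 176 peaks had fold enrichments of 1.73 to 5.86, with a median of 2.92, and a median length of 267 bp. An example is chr1:13396316-13396827 in K+PDS rep2 (fold enrichment 2.75), which shared 1 bp with chr1:13396827-13397026 in K+PEG rep1 (2.59). A one-library site that just missed was chr10:9332962-9333356 in K+PEG rep1 (2.55), after which a K+PEG rep2 peak began at the next base.

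Some one-library sites followed one another, and such runs were most numerous in K+PDS rep2. A run was counted where neighbouring merged intervals were called by the same library alone. Runs of at least 3 held 1904 sites of K+PDS rep2 (13.0% of its sites), against 410 of K+PEG rep1 (4.56%), 443 of K+PEG rep2 (4.00%) and 457 of K+PDS rep1 (5.90%). A library with more one-library sites has more runs, and more of its sites in runs, for that reason alone. K+PDS rep2 alone called 12.7% of all merged intervals, against 7.76% for K+PEG rep1, 9.55% for K+PEG rep2 and 6.69% for K+PDS rep1. No test was made, and runs are not read as particular to K+PDS rep2. The longest runs had 8 sites and were all of K+PDS rep2, at chr7:29598212-29609912 (fold enrichments 2.79 to 4.43), chr12:11851526-11859934 (2.08 to 3.94) and chr12:24422372-24429881 (2.09 to 4.08). K+PEG rep1 reached 6 at chr1:294549-309322 (1.87 to 3.52) and at chr6:5745460-5751120 (2.31 to 4.32). K+PDS rep1 reached 6 at chr2:27892499-27897628 (2.35 to 3.13) and K+PEG rep2 reached 5 at chr2:25063375-25069621 (2.12 to 4.00).

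The sites were found on all 12 chromosomes, and K+PEG rep1 and K+PDS rep1 differed in where they lay. Chromosome 1 held 13.6% of the K+PEG rep1 sites, 11.7% of K+PEG rep2, 9.29% of K+PDS rep1 and 12% of K+PDS rep2. Chromosome 12 held 5.93%, 7.11%, 8.95% and 6.44%, and chromosome 8 7.09%, 7.67%, 9.21% and 7.23%. As a share of the peaks on each chromosome, K+PEG rep1 was lowest on chromosome 12 (9.82%) and highest on chromosome 1 (14.6%). K+PDS rep1 went the other way, with 10.7% on chromosome 1, 13.5% on chromosome 8 and 13.2% on chromosome 12. K+PEG rep2 kept to 12.8% to 14.2%, and K+PDS rep2 ran from 18.0% on chromosome 12 to 23.3% on chromosomes 1 and 3.

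The shares of one-library sites did not overlap between the conditions on 5 of 12 chromosomes (2, 4, 5, 7 and 9), higher in K+PEG on chromosome 2 and lower in K+PEG on the other 4. The shares of the whole lists did not overlap on 11 of 12 chromosomes (91.7%), so nothing particular to one-library sites is read from this count. The widest of these differences was on chromosome 2, where the K+PEG libraries held 10.7% and 9.10% and the K+PDS libraries 8.10% and 8.68% of their sites. The smallest exact permutation p over the 12 chromosomes was 0.33, the lowest this design allows, and 0.727 after Benjamini-Hochberg adjustment, so none passed. Leaving out any single library, which leaves 1 library in a condition, raised the number of such chromosomes to between 7 and 10.

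Along the chromosomes, each cut into deciles of its length up to the end of its last peak, K+PEG rep1 sites were thin in the middle and K+PDS rep1 sites gathered there. Deciles 4 and 5 held 7.08% and 7.24% of the K+PEG rep1 sites, against 11.0% and 10.7% of its whole list, and decile 10 held 12.8% against 9.39%. In K+PDS rep1 these deciles held 14.8% and 13.4% of the sites, against 12.9% and 12.3% of its list, and decile 10 held 6.02% against 7.76%. K+PEG rep2 and K+PDS rep2 were nearly even, with 8.35% to 10.9% and 9.25% to 11.1% in any decile. Against its own list, however, K+PDS rep2 was also thin in the middle, with 18.8% of its sites in deciles 4 and 5 against 22.9% of its list. In K+PEG rep2 these were 21.5% and 22.5%.

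The outer 4 deciles (1, 2, 9 and 10) held 45.5% of the K+PEG rep1 sites, 36.7% of K+PEG rep2, 30.5% of K+PDS rep1 and 40.6% of K+PDS rep2. The whole lists held 37.9%, 36.6%, 34.2% and 36.6% there. The means were 41.1% ± 6.21 in K+PEG and 35.6% ± 7.10 in K+PDS (SD, n = 2), with an exact permutation p = 0.667. For deciles 4 and 5 they were 17.9% ± 5.11 and 23.5% ± 6.61 (SD, n = 2), also with an exact permutation p = 0.667. Within each condition the libraries differed by more than the means did.

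**Figure D5:**
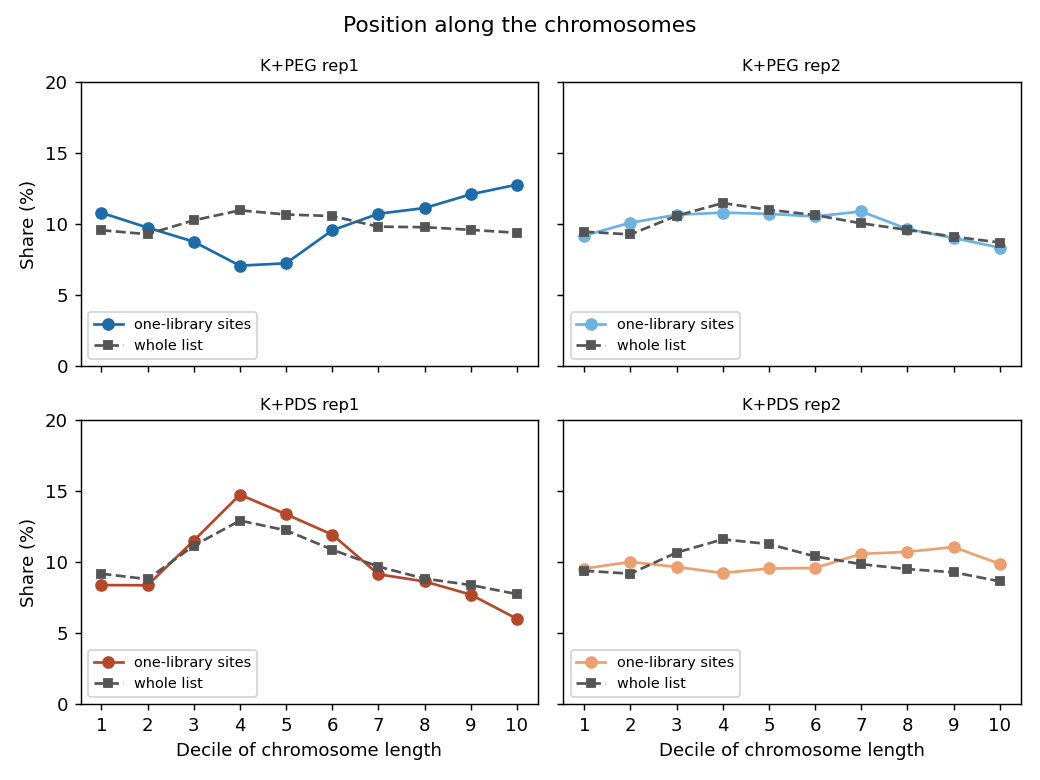
Each panel gives, for a library, the percentage of its one-library sites (coloured line) and of its whole list (grey dashed line) in each decile of the 12 chromosomes, from the start (1) to the end (10). The coloured K+PEG rep1 line dips to 7.08% in decile 4 where its list does not. That of K+PDS rep1 peaks at 14.8% there, above 12.9% of its list. The coloured lines of K+PEG rep2 and K+PDS rep2 stay between 8.35% and 11.1%.

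The contrast between K+PEG rep1 and K+PDS rep1 also appeared in 379 bins of 1 Mb. The counts of one-library sites of K+PEG rep1 and K+PDS rep1 had a Spearman correlation of -0.57 over the bins, those of the K+PEG replicates -0.11 and those of the K+PDS replicates 0.05. Those of K+PEG rep1 and K+PDS rep2 had 0.24, of K+PEG rep2 and K+PDS rep1 0.30, and of K+PEG rep2 and K+PDS rep2 0.09. The whole lists, in contrast, had correlations of 0.66 to 0.89 for every pair of libraries. Within a library, one-library sites followed the whole list closely in K+PDS rep1 (0.85), less so in K+PEG rep2 (0.52) and K+PDS rep2 (0.30), and not in K+PEG rep1 (-0.12). Against intervals of all 4 libraries the values were -0.48 for K+PEG rep1, 0.30 for K+PEG rep2, 0.65 for K+PDS rep1 and -0.05 for K+PDS rep2. K+PEG rep1 sites were thus most numerous where few peaks were shared, and K+PDS rep1 sites where many were. Bins share base composition and peak density between libraries, and a peak near other peaks has more chance to overlap one, so these values are a description. With a reciprocal overlap of at least 50% as the limit for a shared peak, the correlation of K+PEG rep1 and K+PDS rep1 turned to 0.18 and that of the K+PEG replicates to 0.34, and that of the K+PDS replicates rose to 0.50.

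A bin held 1 to 45 sites of K+PEG rep1 (median 24), 2 to 52 of K+PEG rep2 (29), 0 to 59 of K+PDS rep1 (19) and 1 to 71 of K+PDS rep2 (38). The fullest bin of K+PDS rep1 was chr5:11000001-12000000, where its 59 sites stood beside 12, 32 and 45 of K+PEG rep1, K+PEG rep2 and K+PDS rep2. The fullest bin of K+PEG rep1 was chr4:20000001-21000000, with 45 sites beside 29 of K+PEG rep2, 13 of K+PDS rep1 and 36 of K+PDS rep2. That of K+PDS rep2 was chr4:32000001-33000000, with 71 sites beside 23, 23 and 13 of the other libraries, and that of K+PEG rep2 was chr11:16000001-17000000, with 52. In the 376 bins with at least 100 intervals, the share of intervals that were one-library sites ran from 26.9% (chr9:2000001-3000000) to 45.5% (chr9:21000001-22000000), with a median of 36.7%.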

How the data were processed

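BG4-DNA-IP-seq peak lists of 2 K+PEG and 2 K+PDS libraries were used, grouped by the sample labels. The authors used Trim Galore for trimming, BWA for alignment (build MSU v7.0) and MACS2 for a peak list of every library, at p = 0.01 after duplicates were removed. The deposited fold enrichment is a linear ratio with 1 added to reads and background, the deposited −log10 p and −log10 q are those of the summit, and the deposited browser score was not used. Printed starts are the deposited starts plus 1 bp. Whether the K+PDS lists, whose peak names hold the word uniq, went through another read filter was not settled.

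Overlapping peaks were merged with pandas 2.3.3 and numpy 2.4.6 (Python 3.11.15, scipy 1.17.1), and bedtools 2.31.1 gave the same counts. Reads and background at each summit were solved from the deposited fold enrichment and −log10 p under MACS2's Poisson model. They came out whole, within 0.01 on the −log10 p scale, for all but 1, 0, 2 and 1 peaks of the lists. The floor of each library was taken as the 0.01 quantile of the background at its peaks. The depth is this floor times a genome size of 380000000 bp over an assumed read extension of 200 bp, since the extension is not given in the sources used here. Background relative to the floor was the same in all pairs of libraries at matched summits (median ratio 1, 86.4% to 87.7% within 2%), which the scaled reads assume elsewhere.

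Libraries were compared by two-sided exact permutation tests. The methods were tested on simulated data. The sites described singly were, for each library, the 5 with the highest fold enrichment, the longest, that with the smallest gap, the longest run and the fullest 1 Mb bin, and the 2-library intervals with the smallest overlap. Sites of high background were added after their values were seen. The members and lists were chosen with earlier results of these data known. Alternatives were merging within 200 or 1000 bp, a reciprocal overlap of 50%, a −log10 p of at least 5, equal numbers of peaks, listed peaks kept by summit reads scaled to the shallowest depth (with no new calls), each library left out and a replicate block. Sequence content and genes of the sites were not analysed here, since no genome of this build was used.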

Additional observations from a re-analysis of the deposited data

How the results depend on the processing

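The total of 42477 one-library sites stayed within 1.5 times under a −log10 p of at least 5, equal numbers of peaks, summit reads scaled to the shallowest depth and merging within 200 bp, and ran from 38128 to 52225 with single libraries left out. Merging within 1000 bp gave 16445 (K+PEG replicates 1 and 2: 4322 and 4714, K+PDS replicates: 2051 and 5358), and a reciprocal overlap of 50% gave 89969 (19289, 22924, 18729 and 29027). With libraries left out, the sites of K+PEG rep1 ran from 10136 to 21820, of K+PEG rep2 from 14350 to 23367, of K+PDS rep1 from 8864 to 13060 and of K+PDS rep2 from 16474 to 20002. The difference of -1187.5 sites turned to 2628 at a −log10 p of at least 5 and to 813.5 with merging within 1000 bp, and ran from -7331.5 to 10698 with libraries left out. That in share turned to 0.0657 percentage points with merging within 1000 bp and ran from -12.8 to 9.73. Leaving a library out turns intervals it shared only with its partner into one-library sites, so the signs within these ranges do not bear on the direction. No exact p was below 0.33, and equal numbers of peaks reached it for both differences (-4362 and -6.72). Same-numbered libraries did not deviate together (r = -0.21 over 37324 bins of 10 kb), so the replicate numbers were not taken as a pairing. This does not settle whether libraries pair across the numbers. The replicate block left -1187.5 and -3.73 as they were, with an exact p = 1. The crossed replicate block, chosen after that correlation was seen, also gave p = 1. The pooled median fold enrichment of 3.01 moved to 3.40 at a −log10 p of at least 5 and 3.16 with equal numbers of peaks (3.01 to 3.14 with libraries left out). The pooled median gap of 824 bp moved to 1147, 2232 and 1093 bp at a −log10 p of at least 5 and with merging within 1000 and 200 bp (980 to 1082 bp with libraries left out). The number of chromosomes without overlap, 5, ran from 7 to 10 with libraries left out and from 4 to 6 under the other alternatives. A reciprocal overlap of 50% turned the bin correlation of K+PEG rep1 and K+PDS rep1 from -0.57 to 0.18 and that of the K+PEG replicates from -0.11 to 0.34, and raised that of the K+PDS replicates from 0.05 to 0.50. Alternatives for these correlations were chosen after the data were seen. The cause of these changes was not tested. Of 252 other values, 189 moved by less than the spread between replicates and 63 by more. With 2 libraries a condition, the exact permutation test could not pass a threshold of 0.05.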
